A study of Mus musculus with 8 samples.

Results

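The mitochondrial ribosome and the mitochondrial tRNA synthetases were followed in preadipocytes that differentiated in culture. The members were all genes of the array's probe table whose symbol begins with Mrpl or Mrps and a digit, and all whose symbol ends in ars2. Subunits were assigned by symbol alone, Mrpl as large and Mrps as small. The members were 90 of the 16593 genes of the table: 47 of the large subunit, 29 of the small subunit and 14 synthetases, read by 130 probes. Of these, 82 members (43, 27 and 12) had a probe above background on at least 2 of the 8 arrays and were measured, among 9758 genes tested, and 78 were above background on all 8 arrays. The other 8 members, Hars2, Mrpl19, Mrpl21, Mrpl32, Mrpl45, Mrps14, Mrps36 and Yars2, did not reach that level and were not tested.

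The cells were preadipocytes of Irf3-knockout mice and of wildtype mice, grown in high-glucose DMEM with NCS, insulin and ascorbate. RNA was taken on days 3, 5, 7 and 9 of differentiation, with 1 Illumina bead array per genotype and day, so 4 knockout arrays and 4 wildtype arrays. Irf3 is a transcription factor that acts below sensors of nucleic acids and drives interferon genes, and the arrays set cultures without it beside wildtype cultures over the course of fat cell differentiation. Strain, sex, animal or culture of origin, slide, and the deleted part of Irf3 are not given in the sources used here. The p-values therefore measure only the spread of the daily differences, which may be technical.

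The mitochondrial ribosome translates the few messages of mitochondrial DNA, which encode core subunits of the respiratory chain. Its large subunit carries the peptidyl transferase centre and its small subunit decodes the message. All of its proteins are encoded in the nucleus and imported, as are the synthetases that load each mitochondrial tRNA with its amino acid. Fat cells make many mitochondria as they differentiate.

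Of the 82 measured members, 3 differed between knockout and wildtype at an adjusted p under 0.05, and the sequence before their start sites is shown because they are the members on which the genotype results turn. The windows are from RefSeq on GRCm38.p6, and 79 of the 90 members matched 1 there. Lars2 is on chromosome 9, and the 150 bases before its start are chr9:123366777-123366926 on the plus strand. Wars2 is on chromosome 3, with its 150 bases at chr3:99140940-99141089 on the plus strand. Mrps12 and Sars2, both members, are neighbours on chromosome 7 that are transcribed away from each other, and the whole stretch of 146 bases between their start sites is chr7:28741822-28741967, written on the minus strand, which is that of Mrps12. Capitals mark a match to the NRF1 motif described below.
Lars2: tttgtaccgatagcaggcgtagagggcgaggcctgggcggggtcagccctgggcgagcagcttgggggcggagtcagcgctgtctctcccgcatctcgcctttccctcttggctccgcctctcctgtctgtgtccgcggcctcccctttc
Wars2: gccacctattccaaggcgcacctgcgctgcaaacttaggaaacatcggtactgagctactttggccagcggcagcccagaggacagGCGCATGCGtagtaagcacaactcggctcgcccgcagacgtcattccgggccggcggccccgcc
Mrps12-Sars2: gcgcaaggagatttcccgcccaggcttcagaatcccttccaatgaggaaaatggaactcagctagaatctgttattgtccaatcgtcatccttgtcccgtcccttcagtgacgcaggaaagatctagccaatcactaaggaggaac

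Motifs were searched on both strands in the window of 250 bases before to 50 bases after each start. The motif of NRF1, an activator of nuclear genes for mitochondrial proteins, was GCGCANGCG. It was found in 19 of the 79 members with a window (24.1%), against 7.03% of the 27025 genes with one. These 27025 were all RefSeq genes with a window, including genes that the array does not read. Shares among the tested genes alone were not taken. The ETS motif read by GABPA, another such activator, was CCGGAAGT and was found in 16.5% of members, against 4.31% of all genes. The motif of YY1, a zinc finger factor found at many nuclear genes for mitochondrial proteins, was AAGATGGCG, which was found in 13.9% of members, against 1.64% of all genes. The core of the interferon-stimulated response element, GAAANNGAA, the kind of site that interferon regulatory factors bind, was found in 7 members (8.86%), against 9.76% of all genes. No member's window held overlapping matches of different motifs, and 40 members held at least 1 of the NRF1, ETS and YY1 motifs. Wars2 held an NRF1 and a YY1 match, while Lars2, Mrps12 and Sars2 held none of the 4 motifs. These matches describe letters in a window and are not evidence of binding.

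Lars2 charges the mitochondrial leucine tRNA with leucine. It stood lowest in the family by genotype difference, and it was singled out with that difference known, so its values are a description. Its normalised log2 intensity was 5.19, 4.98, 5.36 and 5.18 on the knockout arrays of days 3, 5, 7 and 9, against 9.22, 8.63, 8.81 and 8.92 on the wildtype arrays. Its only probe was above background on 4 of 4 wildtype arrays and on 0 of 4 knockout arrays, so its knockout level is a bound. Lars2 was at least 9.61-fold lower in knockout, taking the higher of the probe's own signal and the dimmest signal above background on each knockout array. On single days the same bound was at least 11.8-fold, 7.5-fold, 9.95-fold and 9.73-fold lower in knockout for days 3, 5, 7 and 9. The bound depends on the background correction, since without it the difference was -1.85 on the log2 scale, or 3.61-fold lower in knockout (adjusted p = 9.37e-05). The fitted log2 difference with correction was -3.71 ± 0.15 (SE, 4 days; adjusted p = 0.000163), a size that rests on knockout values at background. Lars, the cytosolic leucyl-tRNA synthetase, averaged a log2 intensity of 10.04 ± 0.18 in knockout and 10.20 ± 0.26 in wildtype (SD, n = 4 each), a difference of -0.16 ± 0.15 (SE) with an adjusted p of 0.612.

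Mrps12, a protein of the decoding centre of the small subunit, fell in knockout. Its log2 intensity was 11.02, 10.92, 11.11 and 10.96 on the knockout arrays, against 12.61, 12.37, 12.25 and 12.29 on the wildtype arrays. The groups did not overlap, and its single probe was above background on all 8 arrays. The difference was -1.38 ± 0.14 (SE, adjusted p = 0.00314), a 2.6-fold lower level in knockout. Mrps12 was lower on each day, with differences of -1.59, -1.45, -1.14 and -1.34 on days 3, 5, 7 and 9. Sars2, the mitochondrial seryl-tRNA synthetase that starts on the other side of the stretch printed above, stood at 6.59, 5.79, 5.97 and 5.80 in knockout, against 6.39, 5.93, 5.97 and 5.58 in wildtype. Its groups overlapped and its difference was 0.07 ± 0.14 (SE, adjusted p = 0.831), with its probe above background on 4 knockout and 3 wildtype arrays.

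Wars2, the mitochondrial tryptophanyl-tRNA synthetase, rose in knockout. Its log2 intensity was 8.77, 8.81, 8.40 and 8.32 on the knockout arrays, against 6.66, 7.27, 7.56 and 6.79 on the wildtype arrays. Every knockout array was above every wildtype array. The difference was 1.51 ± 0.21 (SE, adjusted p = 0.012), or 2.84-fold higher in knockout, and it was 2.11, 1.54, 0.84 and 1.54 on days 3, 5, 7 and 9. These values come from 1 of its 3 probes. The others were above background on 0 of 4 knockout arrays and on 1 and 0 of 4 wildtype arrays, so they give no second reading. The call was lost without day 5 (1.50, adjusted p = 0.0543), without day 9 (1.50, adjusted p = 0.0678) and on the authors' processed matrix (1.72, adjusted p = 0.0813). Without background correction the call held at a smaller size, 0.92 or 1.89-fold (adjusted p = 0.00532).

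**Figure D1:**
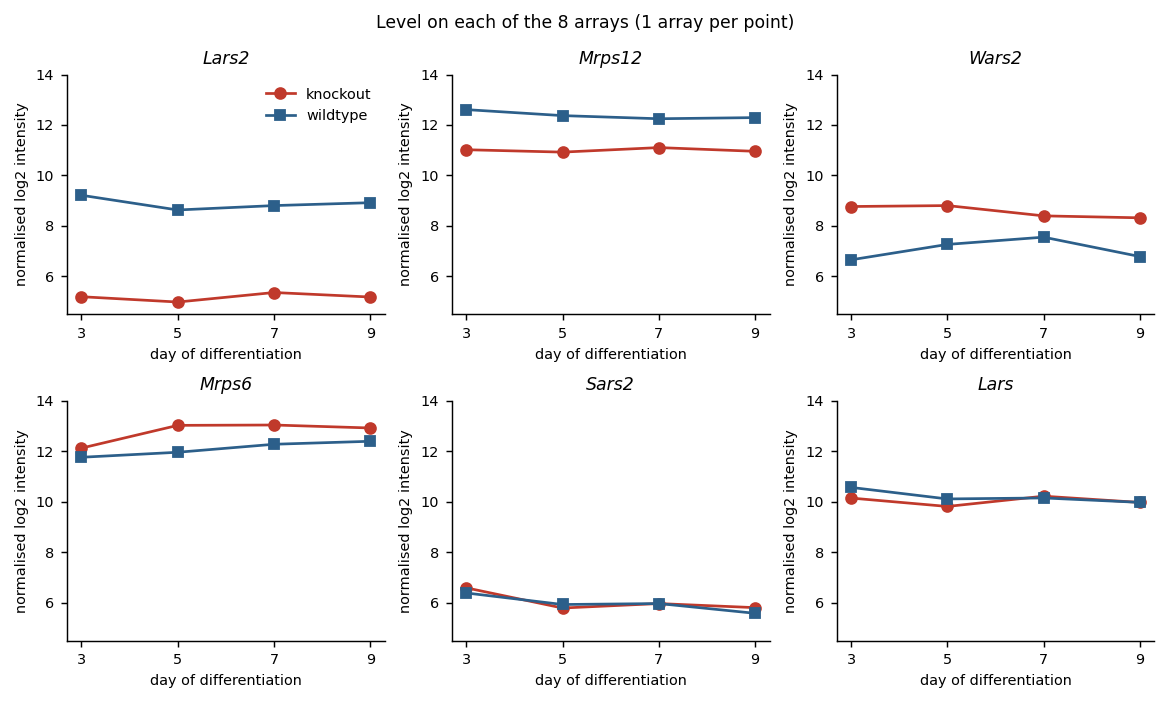
Normalised log2 intensity (vertical axis) by day of differentiation (horizontal axis) for 6 genes, with 1 array per point, knockout as red circles and wildtype as blue squares. Lars2 and Mrps12 lie lower in knockout on all 4 days and Wars2 higher, while Sars2 and the cytosolic Lars overlap between genotypes; levels are not comparable between panels, since each gene has its own probe.

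Limma thus called 1 of 82 members higher in knockout and 2 lower. Over all 9758 genes it called 267 higher (2.74%) and 206 lower (2.11%), so the share of called members was close to the background in each direction. With every probe tested singly, 3 member probes were called, the same probes of Lars2, Mrps12 and Wars2, where 582 of 13413 probes were called in all (4.34%). The knockout arrays lay wholly above the wildtype arrays for 5 members, Wars2, Mrpl55, Mrpl3, Mrpl47 and Mrpl12, where 2.31% of all genes did so. They lay wholly below them for Lars2 and Mrps12, where 3.52% of all genes did so. These counts read each gene from 1 probe, and for Mrpl3 the result depends on it. By the dimmer Mrpl3 probe, above background on every array, the knockout arrays lay wholly below the wildtype arrays. Its values were 9.75, 9.61, 9.72 and 9.23 in knockout, against 10.59, 9.98, 10.09 and 10.03 in wildtype.

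Of the other synthetases none was called for genotype. Rars2, the arginyl enzyme, had the next highest estimate, 0.32 ± 0.15 (SE, adjusted p = 0.301), and its 3 probes gave differences between 0.27 and 0.32. Ears2, the glutamyl enzyme, stood at 0.23 ± 0.13 (adjusted p = 0.376), and Mars2, the methionyl enzyme, at 0.20 ± 0.17 (adjusted p = 0.581). Fars2, the phenylalanyl enzyme, had estimates above 0 on all 4 days with a mean of 0.15 ± 0.13, as had Ears2 with its larger mean. Iars2, the isoleucyl enzyme, stood at 0.13 ± 0.16 and Aars2, the alanyl enzyme, at 0.13 ± 0.17, but Aars2 was above background on only 1 array of each genotype. Vars2, the valyl enzyme, stood at -0.10 ± 0.24, with daily differences of 0.60, -0.63, -0.57 and 0.22. Nars2, the asparaginyl enzyme, stood at -0.04 ± 0.25, above background on 0 knockout and 2 wildtype arrays, so no fold is given. Pars2, the prolyl enzyme, had a log2 intensity of 6.01, 6.37, 7.06 and 6.79 on the knockout arrays of days 3, 5, 7 and 9, against 7.30, 6.30, 6.52 and 6.22 on the wildtype arrays. Its mean difference was -0.03 ± 0.31 (adjusted p = 0.972). Lars2 and Wars2 apart, the synthetases thus lay between -0.10 and 0.32.

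Among the ribosomal proteins with the highest genotype differences, none passed. Mrps6, a small-subunit protein, stood at 12.13, 13.03, 13.04 and 12.92 on the knockout arrays, against 11.76, 11.96, 12.28 and 12.40 on the wildtype arrays. Its lowest knockout array, that of day 3, lay within the wildtype range, and the difference was 0.68 ± 0.16 (SE, adjusted p = 0.0669). Mrps6 was called without day 3 (adjusted p = 0.0357), when 11.1% of all tested genes were called, and under 3 other settings given in the closing section. Mrps22, also of the small subunit, differed by 0.51 ± 0.17 (adjusted p = 0.15), with 0.10 on day 3 and 0.90 on day 5. Mrpl12, whose protein sits on the stalk where translation factors bind, stood at 11.51, 11.93, 12.00 and 11.97 in knockout, against 11.48, 11.14, 11.48 and 11.27 in wildtype. The groups did not overlap, but the day 3 arrays differed by 0.02 only, and the difference was 0.51 ± 0.17 (adjusted p = 0.157). It too was called without day 3 (0.67, adjusted p = 0.0406).

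At the other end, Mrps12 was followed by Mrpl9 and Mrpl33, both of the large subunit. Mrpl9 stood at -0.18 ± 0.16 (adjusted p = 0.615), with -0.61 on day 3. Mrpl33 stood at -0.16 ± 0.13 (adjusted p = 0.567) and was below wildtype on all 4 days. Lars2, Mrps12, Wars2, Mrps6 and Pars2 were the 5 of 82 members at least 2-fold apart between genotypes on some day. Over all 9758 tested genes, 1965 were that far apart. A mean difference under 0.5 in size on the log2 scale was found for 76 of the 82 members and for 8154 of the 9758 genes.

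**Figure D2:**
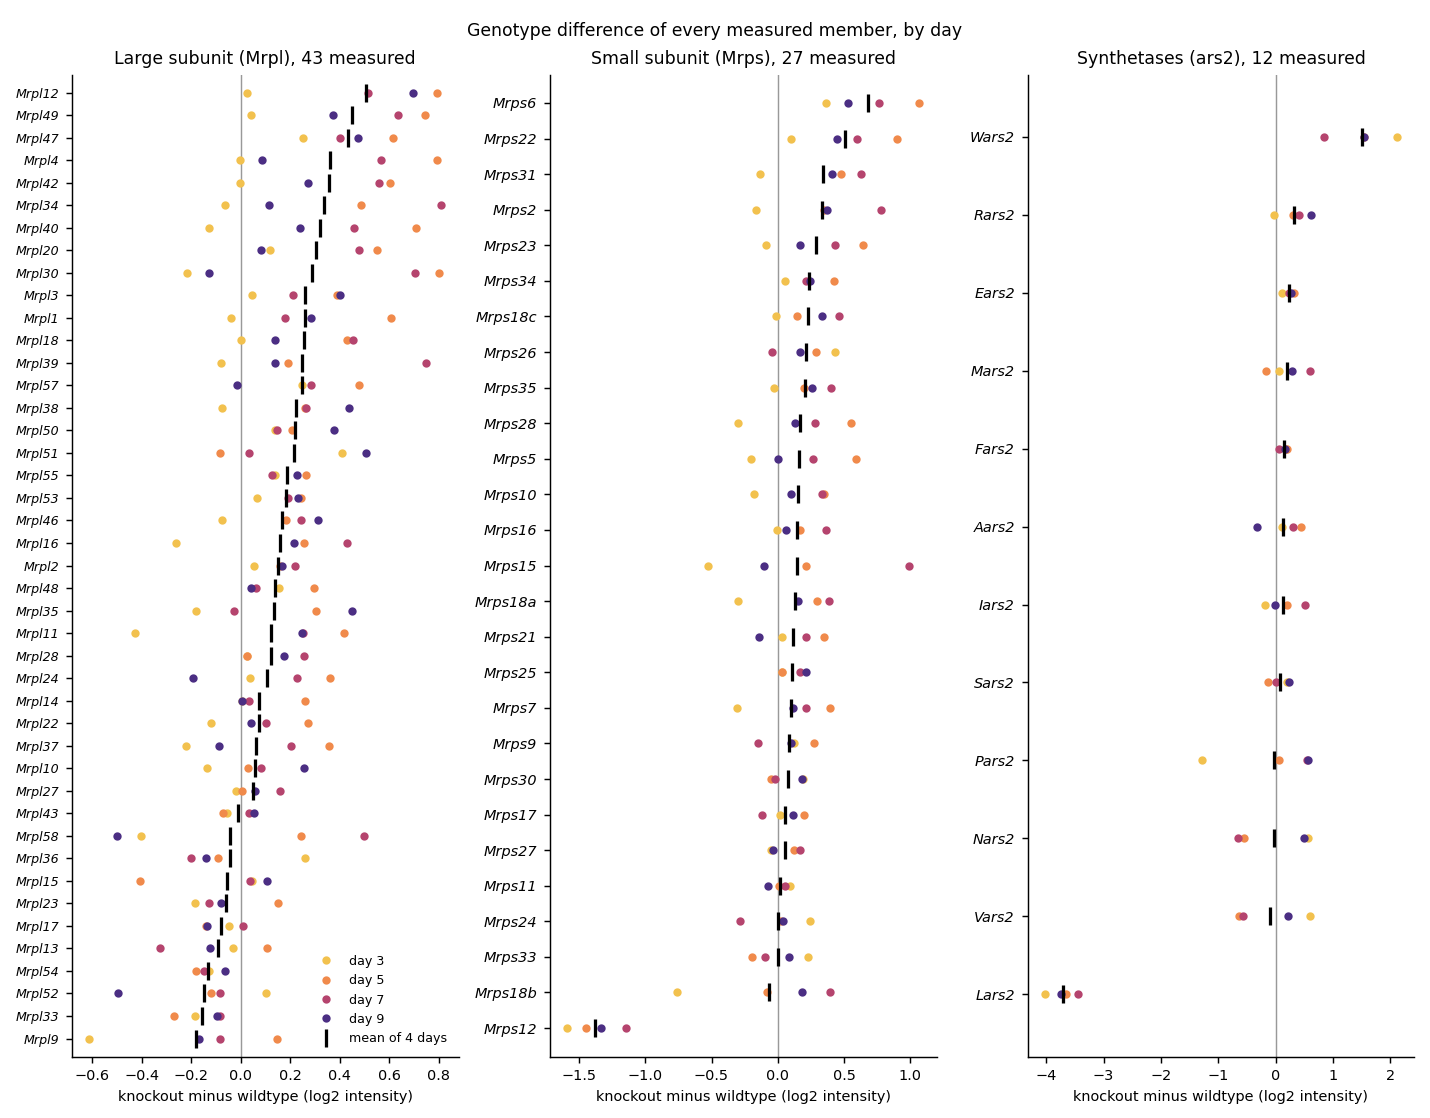
Knockout minus wildtype in log2 intensity (horizontal axis, with its own range in each panel) for each of the 82 measured members (rows), with a dot for each day and a bar for the mean of 4 days. Most means of the large and small subunit lie between 0 and 0.5, with the day 3 dots often to the left of the others, and Lars2, Mrps12 and Wars2 stand apart.

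Across the family, 65 of 82 mean differences were above 0 (79.3%), against 47.2% of all tested genes. The median difference was 0.14, with quartiles of 0.05 and 0.25, against -0.02 over all genes. The medians by class were 0.15 for the large subunit, 0.14 for the small subunit and 0.13 for the synthetases, and the median was 0.14 without Lars2, Mrps12 and Wars2. By day the median difference of the members was 0.00, 0.25, 0.22 and 0.15 at days 3, 5, 7 and 9, with 39, 65, 63 and 60 of 82 members above 0. Over all genes the medians were 0.03, -0.04, -0.04 and 0.00. The members on 1 array share that array's labelling and scaling and are not replicates, so these medians carry no test.

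With each member centred on its mean over the 8 arrays, the family median was -0.04 on the knockout array of day 3, against -0.05 on the wildtype array of day 3. It was 0.14, 0.15 and 0.08 on the knockout arrays of days 5, 7 and 9, against -0.10, -0.07 and -0.06 on the wildtype arrays. The 3 later knockout arrays were thus the high ones, and the knockout array of day 3 lay nearer to the wildtype arrays.

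Most subunits of the respiratory chain are also nuclear genes. Its list took symbols that begin with Nduf, Sdh, Uqcr, Atp5, or Cox and a digit. Assembly factors with such symbols were not set apart from subunits. The list had a larger median difference than the family, 0.29 over 92 genes, with 85 above 0, 4 called higher and 1 lower. Its daily medians were 0.07, 0.35, 0.42 and 0.28. The cytosolic ribosomal proteins stood at a median of -0.04 over 54 genes, with 0 called higher and 2 lower. The cytosolic tRNA synthetases stood at -0.03 over 16 of 20 listed, with 0 called by limma in either direction. Gars and Kars, both among the 16, also serve mitochondria. The difference between these groups and the family was not tested.

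Of 66 listed further genes of mitochondrial gene expression, 56 were measured, with a median of 0.16 and 43 above 0, and limma called 1 higher and 0 lower. The called gene was Ppargc1b, a coactivator of nuclear genes for mitochondria, with a log2 difference of 0.94 ± 0.19 (SE, adjusted p = 0.0393). Its relative Ppargc1a stood at 0.84 ± 0.26 (adjusted p = 0.131), above background on 3 knockout and 2 wildtype arrays. Tfam, which packages mitochondrial DNA and takes part in its transcription, stood at 0.22 ± 0.17 (adjusted p = 0.52). Polrmt, the mitochondrial RNA polymerase, stood at 0.18 ± 0.16 (adjusted p = 0.609). The transcription factors whose motifs were searched stood at -0.11 ± 0.16 for Nrf1 (adjusted p = 0.753) and -0.07 ± 0.15 for Gabpa (adjusted p = 0.857). Tufm, the mitochondrial elongation factor that brings charged tRNA to the ribosome, stood at 0.27 ± 0.15 (adjusted p = 0.382).

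Markers of other states of the cultures moved with genotype beside the family. Of 12 listed macrophage markers 10 were measured, with 10 above 0, a median difference of 1.62 and 6 called higher. Their summed normalised intensity on the linear scale ran from 14150 to 76036 on the knockout arrays, against 3624 to 38036 on the wildtype arrays. Ptprc and Itgam, both surface proteins of blood-derived cells, were above background on 2 knockout arrays each and on 0 wildtype arrays. Of 11 listed adipocyte markers 10 were measured, with a median difference of 1.51 and 2 called higher, Pparg (1.12 ± 0.22) and Pnpla2 (1.58 ± 0.26). Their summed intensity ran from 31328 to 77026 on the knockout arrays, against 27682 to 54142 on the wildtype arrays. Adipoq, which defines fat cells, was above background on all 8 arrays, and the probe of Fabp4 was above background on 3 knockout and 0 wildtype arrays. Of preadipocyte markers 5 of 6 were measured, with a median of -0.23 and 1 called higher, Dlk1 (0.88 ± 0.16, SE). Mesothelial markers, 4 of 6 measured, had a median of -0.86, with Krt8 (-1.70 ± 0.27) and Krt18 (-1.20 ± 0.13) called lower. Wt1, the 1 of these 4 above 0, went the other way without a call (1.07 ± 0.33, SE, adjusted p = 0.133). Endothelial markers, 4 of 5 measured, had a median of -0.38 with Flt1 (-0.76 ± 0.14) called lower. The part of these cells in the family's differences was not tested. In bulk RNA, more cells of a type and more RNA per cell cannot be told apart.

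**Figure D3:**
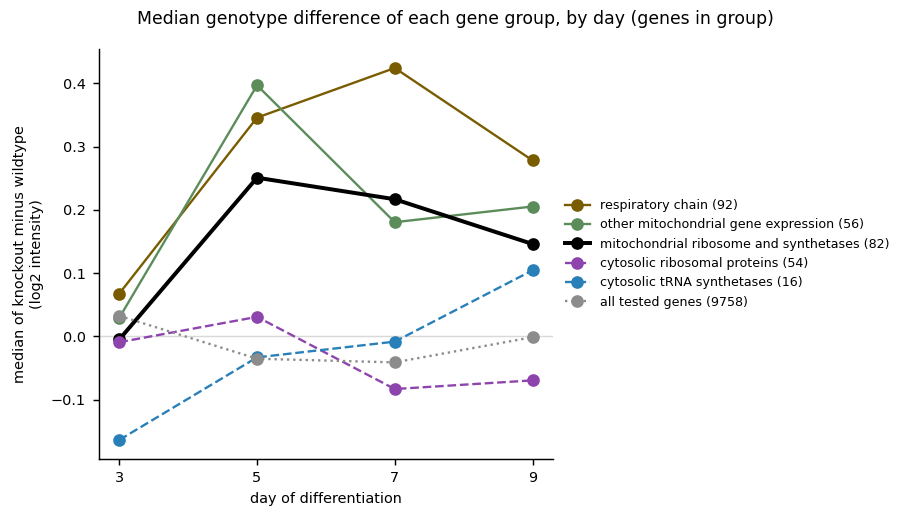
Median over genes of knockout minus wildtype in log2 intensity (vertical axis) by day (horizontal axis) for the family, 4 further gene groups and all tested genes, with the number of measured genes in brackets; 1 array stands against 1 on each day, so no error is drawn. The family's median is 0.00 on day 3 and 0.25 on day 5, between those of the respiratory chain and of the cytosolic ribosomal proteins on each day from day 5 on.

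The family was also tested for a change with day of differentiation. Limma called 0 of 82 members for a slope per day over both genotypes, with 5 at an unadjusted p under 0.05. Over all 9758 genes it called 1638 (16.8%), with 3193 at an unadjusted p under 0.05. The median slope was 0.01 per day on the log2 scale, 0.01 in knockout and -0.01 in wildtype, and it was -0.0075 without the knockout array of day 3. The steepest estimates were those of Mrps6, 0.12 ± 0.04 per day (SE, adjusted p = 0.0749), and Sars2, -0.11 ± 0.04 per day (adjusted p = 0.064). Mrpl50, of the large subunit, stood at 0.09 ± 0.03 per day (adjusted p = 0.0944), Mrpl20 at 0.08 ± 0.03 (adjusted p = 0.109) and Mrpl35 at 0.08 ± 0.04 (adjusted p = 0.15). Of the respiratory chain list, 11 of 92 genes were called rising with day and 0 falling, with a median slope of 0.05 per day. Over all 9758 genes, 833 were called rising and 805 falling, with a median slope of -0.01 per day.

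No gene was called for a difference in slope between the genotypes, 0 of 9758 (0%) and 0 of 82 members, with 595 genes and 1 member at an unadjusted p under 0.05. That member was Pars2, at 0.15 per day in knockout and -0.15 per day in wildtype, a difference of 0.30 ± 0.09 per day (adjusted p = 0.726).

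**Figure D4:**
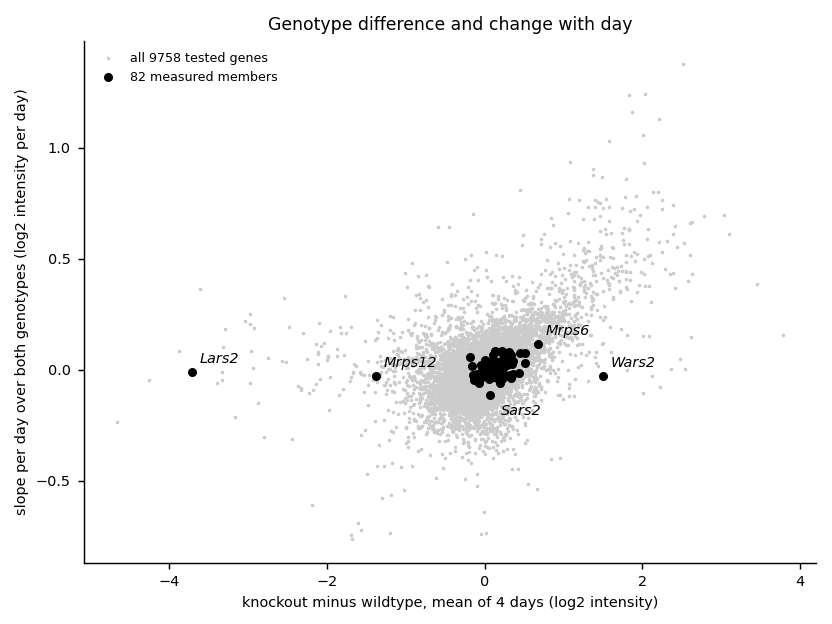
Slope per day over both genotypes (vertical axis, log2 intensity per day) against the mean knockout minus wildtype difference (horizontal axis, log2 intensity) for the 82 measured members (black) over all 9758 tested genes (grey). The members gather near a slope of 0 and slightly right of a difference of 0, and Lars2, Mrps12 and Wars2 lie apart along the horizontal axis only.

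Each gene was read through the kept probe of highest mean intensity, and 23 measured members had several probes above background, 54 in all. Between the highest and the lowest probe of a member the genotype difference spread by a median of 0.19 on the log2 scale, and in 12 of the 23 members they had opposite signs, none of them called. The members whose probes stood furthest apart, named after their values were seen, were Mrpl3 and Mrps7. Mrpl3, of the large subunit, had 0.26 by its brighter probe and -0.60 by its dimmer one (adjusted p over probes 0.381 and 0.0918). Mrps7, of the small subunit, had 0.10 and -0.60 (adjusted p over probes 0.798 and 0.0845). The probes of Mrps31 lay closer together, between 0.34 and 0.42.

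**Figure D5:**
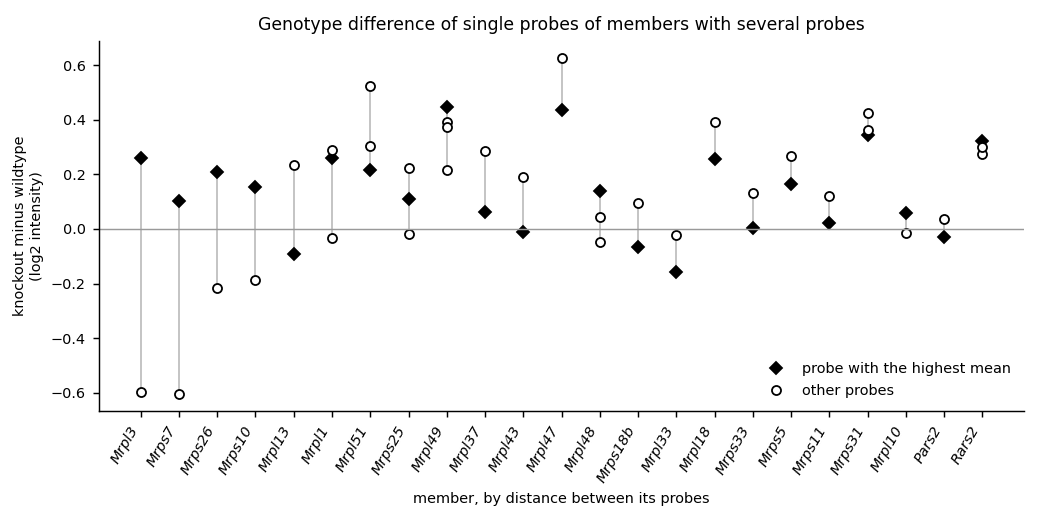
Knockout minus wildtype in log2 intensity (vertical axis) for each kept probe of the 23 members with several probes, ordered by the distance between probes; filled diamonds are the probe with the highest mean, open circles the other probes. Mrpl3 and Mrps7 have 1 probe above 0 and 1 near -0.60, and in 12 members the probes straddle 0.

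Over the 8 arrays the tested genes whose profile was most like that of Lars2 were Mrps12 (Pearson r = 0.994), Heatr5a (0.993), Prkag2 (0.992), Psmd8 (0.988) and Sdc1 (0.987). These correlations are a description over 8 points that fall into 2 genotypes, so a gene steadily lower in knockout has a high value. Heatr5a stood at -1.70 ± 0.14 (SE) between knockout and wildtype and Sdc1, a cell-surface proteoglycan, at -0.98 ± 0.14. Psmd8, a lid subunit of the proteasome, had a log2 intensity of 8.11, 8.20, 7.75 and 7.77 on the knockout arrays, against 12.15, 12.41, 12.18 and 12.12 on the wildtype arrays. Prkag2, a regulatory subunit of the AMP-activated kinase, was like Lars2 above background on 0 of 4 knockout and 4 of 4 wildtype arrays, and it was at least 7.84-fold lower in knockout.

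In RefSeq gene order, no member of the family lies among the 10 genes on each side of Irf3. Bcl2l12, a gene beside Irf3 that is no member, was above background on 1 knockout and 4 wildtype arrays and was called lower in knockout (-1.67 ± 0.25, SE, adjusted p = 0.0148). It lost the call without day 5 (adjusted p = 0.0577), without day 7 (adjusted p = 0.0594) and on the processed matrix (adjusted p = 0.0781), and stood at -0.61 without background correction (adjusted p = 0.0251). Lars2 is on chromosome 9 and Irf3 on chromosome 7. The nearest tested genes before Lars2 were Exosc7, Clec3b and Tmem158, with differences of 0.01, 1.12 and -0.02, and those after it were Limd1, Sacm1l and Fyco1, with -0.51, 0.12 and -0.15. None of these 6 was called, and the smallest adjusted p was 0.227, for Limd1. Mrps12 is on the chromosome of Irf3 with 576 genes between them, and it was the 1 member called of 9 measured there. Around Mrps12 and Wars2, a look taken after their values were seen, the 3 nearest tested genes on each side of either held 1 called gene. This was Gmfg, near Mrps12, a regulator of actin branching known from blood cells, which rose by 2.44 ± 0.41 (SE, adjusted p = 0.0223). The macrophage markers were also higher in the knockout cultures, and a link between the rise of Gmfg and theirs was not tested. Psmd8 lies on chromosome 7 as well, with 27 genes between it and Mrps12. Of 775 tested genes on chromosome 7, also counted after values were seen, 61 were called (7.87%), against 4.85% of all tested genes.

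Irf3 itself was above background on all 8 arrays, at a log2 difference of -0.50 ± 0.17 (SE, adjusted p = 0.166), and since the deleted part is not known its level does not check the labels. Mean raw intensity ran from 638 to 1026 per array, and 47.6% to 52.2% of probes were above background. After normalisation, arrays correlated across the tested genes with a Pearson r of at least 0.891. Precision is limited by the number of arrays. Brightness depends on the probe, so levels were not ranked between genes.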

How the data were processed

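The authors deposited a table of bead intensity per probe that is not normalised, on a linear scale, for 25697 probes on 8 arrays. Beside each intensity they deposited a detection p-value per the file headers. A second deposited matrix of processed intensity, with a lowest value of 20, served as an alternative, of which the sources used here do not give the normalisation. The probe table paired 23978 probes with 1 symbol, 0 with several and 1719 with none, and 23962 were matched to names of GRCm38.p6.

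With limma 3.58.1 in R 4.3.3, neqc estimated the background through the detection p-values (offset 16), quantile-normalised the arrays and gave log2 values. The filter kept 14232 probes, those whose detection p was under 0.05 on 2 arrays or more, and a gene was read from its kept probe of highest mean. Genotype was fitted with day as a factor (3 residual degrees of freedom), so the 4 daily differences are the repeats, and error includes any real drift of that difference over days. The slope per day was fitted with genotype as a term (5), and the difference in slope as an interaction (4). Tests were two-sided and moderated, with Benjamini-Hochberg adjustment over all 9758 genes or, for single probes, 13413 probes; an adjusted p under 0.05 made a call. The fits for genotype and day were also run on simulated data with independent noise for each gene and array. Shared array effects and values held at background were not simulated, so that run does not bear on them.

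The members and the lists were chosen with earlier results of these data known. Named genes were Lars2 and every measured ars2 gene, members called, the 3 highest and lowest ribosomal proteins by genotype difference, the 5 genes most correlated with Lars2, the 3 tested genes on each side of Lars2, and any member among the 10 genes on each side of Irf3. Levels were not ranked between genes, because each is read by its own probe. Alternatives changed the background correction, scaling, source table, detection filter, probe rule, variance prior, day term and days used.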

Additional observations from a re-analysis of the deposited data

Results flagged for a closer look

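In groups of 4 arrays, a value was looked at again where its gap to the nearest other array, divided by the group's range, was above the 95% critical value of Dixon's test. That value is set so that about 1 of 20 groups of independent repeats pass it. The 4 arrays here are successive days, so a gene that changes with day can pass, and 1 of 20 is not the chance rate. Among 38 such groups, 3 passed it. All 3 are knockout groups in which the day 3 array was the lowest. For Mrps6 in knockout the ratio was 0.872, with 12.13 on day 3 and 12.92 on the nearest array. For Mrpl12 in knockout it was 0.862, with 11.5 and 11.93, and for Mrpl9 in knockout 0.831, with 9.81 and 10.31. Without day 3, when 11.1% of all tested genes were called for genotype, so were Mrps6 and Mrpl12, and Mrpl9 stood nearer to 0.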

How the results depend on the processing

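The members' median genotype difference stayed between 0.10 and 0.21 under every alternative run, and 63 to 70 members were above 0. Mrps12 was called throughout (largest adjusted p = 0.0401). Lars2 was called wherever it was measured, between -4.08 and -1.85, the last without background correction (largest adjusted p = 0.0157), where Wars2 stood at 0.92; Lars2 was not measured with probes above background on all 8 arrays, and having 1 probe it allowed no other. Leaving out 1 day gave 2 to 5 called members: 5 without day 3, with Mrpl12 and Mrps6 added, when 1082 of all genes (11.1%) were called, and 2 without day 5 or day 9, where Wars2 was lost. Mrps6 was called without background correction (0.66, adjusted p = 0.0232), with all 8 arrays above background (adjusted p = 0.0481), with a trended and robust prior (adjusted p = 0.00965) and without day 3. Called single probes were 6 without background correction and 6 with the trended prior, and 2 to 6 with 1 day left out. Members called for day were 3 without background correction, 2 on the processed matrix and 2 with the trended prior, each of these with a slope above 0. With 1 array left out they were 0 to 2. Matching counts for day over all genes, and for single probes over all probes, were not taken under these settings. Whether members gained calls more than other genes did is therefore not known. The median slope was 0.0227 on the processed matrix, and with 1 array left out it ran from -0.0075, without knockout day 3, to 0.0167. Signs turned for Nars2 without background correction (0.016), Vars2 on the processed matrix (0.0239) and Pars2 by the mean of its probes (0.0028). With 1 day left out, Pars2 ran from -0.23 to 0.39, Vars2 from -0.3262 to 0.0832, Nars2 from -0.24 to 0.17 and Iars2 from -0.0017 to 0.23. Apart from days or arrays left out, the cause of these changes was not tested. All genes called for genotype, 473 in the reported fit, were 1082, 199, 182 and 161 without days 3, 5, 7 and 9, 94 on the processed matrix, 115 with no day term and 771 with the trended prior. The genotype fit pairs the arrays of a day, and without the day term the same 3 members were called.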
